A study of Mus musculus with 12 samples.

Results

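The HOXA genes Hoxa3, Hoxa4, Hoxa5, Hoxa6, Hoxa7, Hoxa9 and Hoxa10, together with Meis1 and Pbx3, are genes that MLL-AF9 is known to bind and activate, and their expression was described in mouse leukaemia stem cells with and without telomerase. The members were all probes whose platform gene symbol is 1 of these 9 genes, which gave 19 of the 38502 probes on the array and 9 of 18484 annotated genes. Of these, 16 lay above the background limit on at least 3 of 12 arrays and were tested. The other 3 (Hoxa3 probe ILMN_1258410, Hoxa10 probe ILMN_2646967 and Pbx3 probe ILMN_2650972) lay above it in 0 of 10 samples. Each of the 9 genes kept at least 1 probe.

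All samples carried MLL-AF9, a fusion oncogene of acute myeloid leukaemia, together with green fluorescent protein. Bone marrow progenitors (lineage-negative, Kit-positive, Sca1-positive) were either WT or G3 Terc-/-, which lack the RNA component of telomerase, and 10000 of them were injected into each C57BL/6J recipient, aged 6 to 8 weeks and irradiated with 5.5 Gy. The cells analysed were sorted for green fluorescence, Kit and Fcgr, without lineage markers, from the marrow of recipients once each leukaemia had appeared, and 6 arrays were made of each genotype. For the Terc-/- arrays the labels add a phosphorylation status, which is p-p53 (Ser15) for replicates 2, 3 and 6, p-Foxo3a (Ser253) for replicates 1 and 4, and no status for replicate 5. The vector that carried MLL-AF9 and its promoter are not stated in the labels, and no label says whether replicates are separate mice. The p-values therefore rest on sample-to-sample spread that may be technical.

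Each array had 19356 to 19549 probes above the background limit of 6.57 on the log2 scale. WT replicates 5 and 6 correlated at 0.996 over probes, as did Terc-/- replicates 2 and 6, whereas the other 64 array pairs ranged from 0.967 to 0.990. The lowest value was that of WT replicate 4 with Terc-/- replicate 1. Each near-identical pair was averaged and counted as 1 sample, which left 5 WT and 5 Terc-/- samples. Within these pairs the 16 tested member probes differed by a median of 0.10 and 0.12, and by at most 0.49 and 0.39, on the log2 scale. Of the genes that define the sort, Kit had a log2 value of 12.52 ± 0.19 in WT and 12.91 ± 0.32 in Terc-/- samples, and the Fc receptor gene Fcgr2b one of 11.58 ± 0.08 and 11.78 ± 0.34 (SD, n = 5 each). The T cell gene Cd3e did not pass the filter on dim probes, but 2 of 6 listed T cell genes did. Il7r was at 7.36 ± 0.69 in WT and 7.02 ± 0.61 in Terc-/- samples, and Cd3d lay between 6.25 and 6.89 over all samples. Of 7 listed B cell genes 4 passed the filter. Cd79b, a part of the B cell receptor, was at 10.71 ± 0.42 and 10.88 ± 0.27. Ebf1, Ms4a1 and Vpreb1 lay near the background limit, with means of 6.83, 6.55 and 6.97 in WT and 6.81, 6.54 and 7.01 in Terc-/- samples. The myeloid integrin gene Itgam was at 8.17 ± 0.14 and 8.11 ± 0.26. The genotype could not be checked on these arrays, since the annotation lists no probe under Terc.

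HOX proteins are homeodomain transcription factors encoded in clusters, and the more 5′ genes of the A cluster, above all Hoxa9 and Hoxa10, keep blood progenitors in a self-renewing state and are normally shut off as myeloid cells mature. MEIS1 and PBX3 belong to the TALE homeodomain family and bind DNA in complexes with HOX proteins. MLL fusions hold this programme on, and in mouse models Hoxa9 with Meis1 is enough to transform myeloid progenitors, with Pbx3 as a further partner.

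The first question was whether loss of telomerase changed these genes. Among the 16 member probes, 8 were higher and 8 lower in Terc-/- than in WT samples, where 52.9% of all probes were lower, with a median log2 difference of -0.0078, against -0.0091 over all 22084 probes tested. By limma with Benjamini-Hochberg adjustment, 0 of 16 member probes passed an adjusted p of 0.05, in a comparison where 0% of all probes did. At an unadjusted p under 0.05 there was 1 member probe, for Hoxa4, where the share over all probes was 7.42%. No member probe had groups that did not overlap (1.26% of all probes). By the brightest probe, the differences of Hoxa4, Hoxa9 and Pbx3 kept their sign under each alternative setting that was run. Those of Hoxa3, Hoxa5, Hoxa6, Hoxa7, Hoxa10 and Meis1 turned under at least 1. The Meis1 probe ILMN_1248401 and the dim Hoxa3 probe ILMN_1234863 also kept their sign. Settings that changed only the filter or the variance model could not turn a sign. Since each sample holds RNA of many sorted cells, fewer cells with a transcript and less transcript per cell cannot be told apart.

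**Figure D1:**
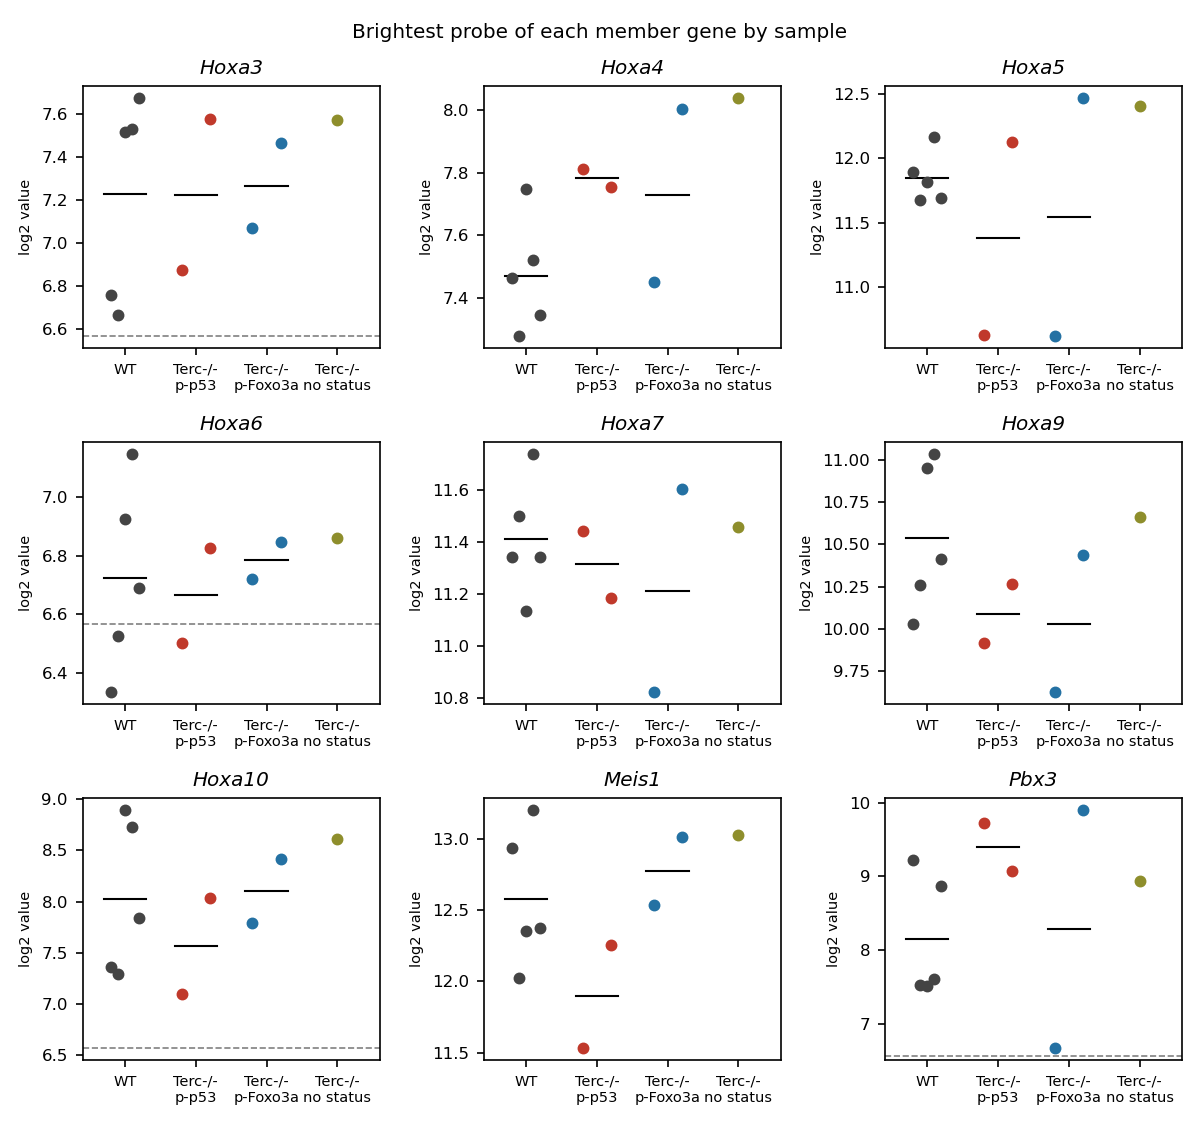
Log2 value of the brightest probe of each of the 9 genes in every sample, with WT, p-p53 Terc-/-, p-Foxo3a Terc-/- and no-status Terc-/- samples in separate columns. Each point is 1 sample (averaged pairs count once), the short bar is the group mean, and the dashed line marks the background limit of 6.57 where it falls in the range. Axes differ between panels, and the WT and Terc-/- points overlap for every gene.

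Hoxa9 encodes the HOX factor most closely tied to MLL-rearranged leukaemia. Its brightest probe read 10.03, 10.26, 10.95, 11.04 and 10.41 in WT samples 1, 2, 3, 4 and 5-6. In Terc-/- samples 1, 2-6, 3, 4 and 5 it read 9.63, 9.92, 10.27, 10.44 and 10.66. The 2 lowest values were from Terc-/- samples and the 2 highest from WT samples, and the groups overlapped over the rest. The log2 difference was -0.36 ± 0.24 (SE), a 1.28-fold lower mean in Terc-/-, with a 95% interval of -0.88 to 0.17 and an adjusted p of 0.743 by limma. The other bright Hoxa9 probe gave -0.36 ± 0.22, and both bright probes correlated over the 10 samples (Pearson r = 0.980). The remaining probe, a dim one, gave -0.11 ± 0.09 and lay above the limit in 6 of 10 samples.

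Hoxa10, the 5′ neighbour of Hoxa9 and like it a promoter of progenitor expansion, varied more widely within each group. WT samples 1, 2, 3, 4 and 5-6 had 7.36, 7.29, 8.90, 8.73 and 7.84 for its tested probe. Terc-/- samples 1, 2-6, 3, 4 and 5 had 7.79, 7.10, 8.03, 8.42 and 8.61. Low and high samples occurred in both genotypes, and the difference of -0.03 ± 0.37 was far inside the spread within groups (adjusted p = 0.991, limma). Its range over samples was 3.47-fold.

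Hoxa7, which is usually expressed along with Hoxa9 in these leukaemias, was comparatively even. It read 11.34, 11.50, 11.13, 11.74 and 11.34 in the WT samples and 10.82, 11.44, 11.19, 11.61 and 11.46 in Terc-/- samples 1, 2-6, 3, 4 and 5. Terc-/- sample 1 was the lowest of all and the remaining Terc-/- samples lay within the WT range. The difference was -0.11 ± 0.16, with an interval of -0.46 to 0.24 (adjusted p = 0.888, limma). Hoxa6 was dim, between 6.33 and 7.15, and lay above the limit in 7 of 10 samples. Its difference was 0.03 ± 0.15, from means of 6.72 ± 0.32 in WT and 6.75 ± 0.15 in Terc-/- samples.

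Hoxa5, a more 3′ gene of the cluster that is strongly expressed in MLL-rearranged leukaemias, was tight in WT and split in Terc-/- samples. The WT samples read 11.89, 11.67, 11.82, 12.17 and 11.69. Terc-/- samples 1 and 2-6 read 10.62 and 10.63, whereas Terc-/- samples 3, 4 and 5 read 12.12, 12.47 and 12.41. The 2 low samples lay 1.04 below the lowest of the other 8 samples, and samples 4 and 5 lay above every WT sample. The SD was 0.20 in WT and 0.95 in Terc-/- samples, a contrast that was not tested, and the mean difference was -0.20 ± 0.38 (adjusted p = 0.925, limma). The low pair holds 1 p-Foxo3a sample (replicate 1) and 1 p-p53 sample (replicates 2 and 6), so it does not follow the phosphorylation label.

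Hoxa4 and Hoxa3 are the most 3′ members measured here. Hoxa4 read 7.46, 7.28, 7.75, 7.52 and 7.35 in WT samples and 7.45, 7.81, 7.76, 8.00 and 8.04 in Terc-/- samples 1, 2-6, 3, 4 and 5. Of the 5 Terc-/- samples, 4 lay above the highest WT sample, and sample 1 lay among the WT values. The difference was 0.34 ± 0.13, or 1.27-fold, with an interval of 0.06 to 0.62 and an unadjusted p of 0.0217, which became 0.644 after adjustment over all probes by limma. The brightest Hoxa3 probe showed 2 levels in both genotypes. It read 6.76, 6.67, 7.52, 7.53 and 7.68 in WT samples and 7.07, 6.87, 7.58, 7.46 and 7.57 in Terc-/- samples, with a difference of 0.08 ± 0.23. The other 2 tested Hoxa3 probes, above the limit in 4 and 3 of 10 samples, differed by -0.06 ± 0.08 and 0.02 ± 0.10. Their Pearson r with the brightest probe over the 10 samples was 0.31 and 0.11. The 2 levels and the correlations of Hoxa3 given below therefore rest on 1 probe.

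Meis1, the TALE partner that cooperates with Hoxa9, was read by 3 tested probes. The brightest gave 12.93, 12.02, 12.35, 13.20 and 12.37 in WT samples and 12.54, 11.53, 12.26, 13.01 and 13.03 in Terc-/- samples 1, 2-6, 3, 4 and 5. The p-p53 sample 2-6 was the lowest of the 10, WT sample 4 was the highest, and the genotypes overlapped. The difference was -0.10 ± 0.31 for this probe, 0.48 ± 0.58 for ILMN_1248401 and 0.04 ± 0.35 for ILMN_1218217 (adjusted p from 0.857 to 0.988, limma), so the probes did not share a sign. ILMN_1248401 spanned 8.35-fold over samples, against 3.18-fold for the brightest probe. Pearson r between the 3 probes over the 10 samples was 0.783 to 0.931.

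Pbx3, whose product joins HOX and MEIS proteins on DNA, had the widest range of the 9 genes. Its brightest probe read 9.23, 7.52, 7.51, 7.61 and 8.87 in WT samples and 6.67, 9.73, 9.07, 9.90 and 8.94 in Terc-/- samples 1, 2-6, 3, 4 and 5. WT samples 2, 3 and 4 lay close together at the low end, WT samples 1 and 5-6 lay near the Terc-/- values, and Terc-/- sample 1 was lowest, just above the background limit. The range was 9.42-fold. The difference was 0.71 ± 0.60, or 1.64-fold higher in Terc-/-, with an interval of -0.61 to 2.03 (adjusted p = 0.787, limma). The other tested Pbx3 probe gave 0.70 ± 0.58 and followed the first over samples (r = 0.997).

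**Figure D2:**
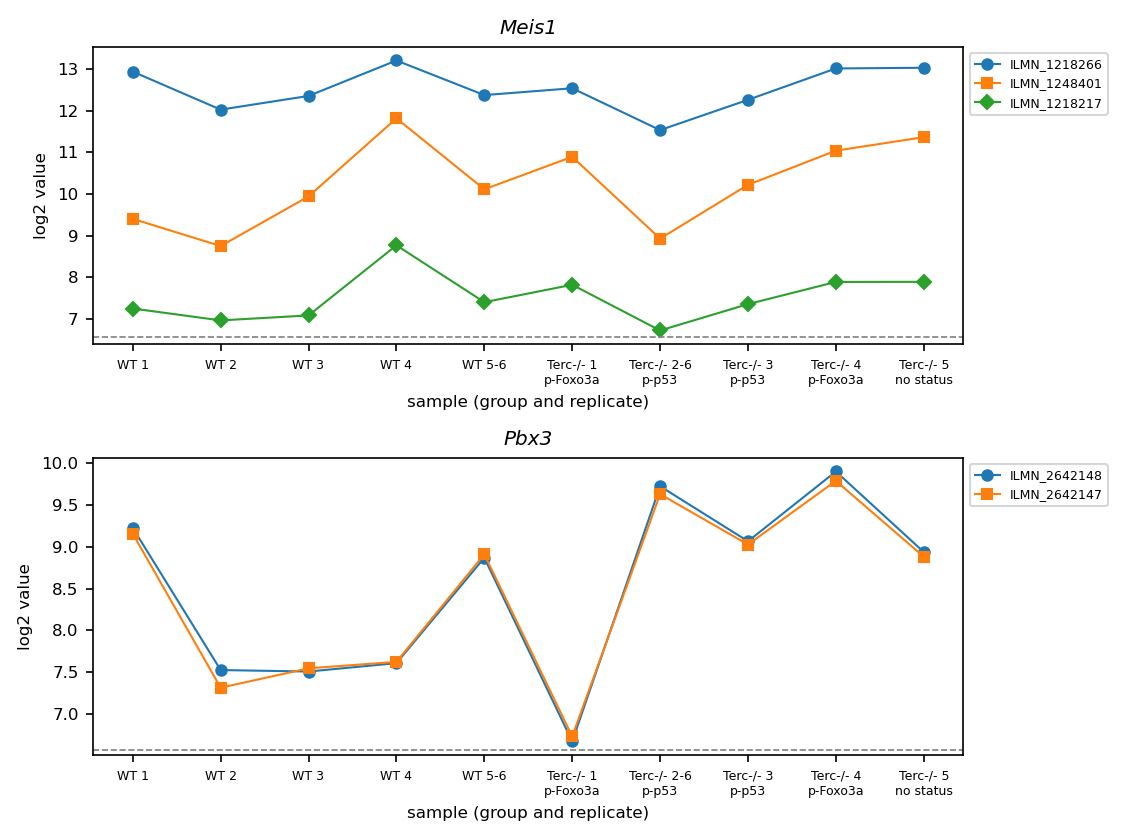
Log2 values of the 3 tested Meis1 probes and the 2 tested Pbx3 probes in each of the 10 samples, named on the horizontal axis by group and replicate, with the background limit dashed. Lines only join the points of 1 probe. The Pbx3 probes coincide, whereas the Meis1 probes share their low sample, Terc-/- 2-6, only in part: ILMN_1248401 is lowest in WT 2 (8.75).

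Most member probes varied more from sample to sample than the median tested probe, in a comparison that was not matched for level. Of the 16 tested probes, 13 had an SD over the 10 samples above the median of all tested probes (0.19), and 8 lay above the 90th percentile. These 8 belong to Hoxa5, Hoxa9, Hoxa10, Meis1 and Pbx3 and include every tested probe of Meis1 and Pbx3, so some genes count more than once. Pbx3 stood at percentile 99.2 (SD 1.09), the Meis1 probe ILMN_1248401 at 98.9 (SD 1.03), Hoxa5 at 96.3 (SD 0.65) and Hoxa10 at 96.1 (SD 0.64). Hoxa7 (SD 0.26) and Hoxa4 (SD 0.27) stood at 71.5 and 72.5.

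The labels further separate Terc-/- samples by phosphorylation status, with 2 samples for each, and both are set against the same 5 WT samples. In p-p53 samples, 13 member probes were lower and 3 higher than in WT samples (51.4% of all probes were lower), with a median log2 difference of -0.16 (all probes: -0.0046). Several of these probes measure the same gene. By gene, with the brightest probe of each, 7 were lower and 2 higher, with a median of -0.098. Of all 11974 genes, 6348 were lower. Of the 16 probes, 0 passed an adjusted p of 0.05 (0% of all probes) and 0 passed an unadjusted p of 0.05 (2.64%) in the limma fit. The groups did not overlap for 2 member probes, where 8.07% of all probes showed this. These were Hoxa4, whose values of 7.81 and 7.76 lay just above the highest WT value of 7.75, and the dim Hoxa3 probe ILMN_1237475, whose values of 6.37 and 6.36 lay just under the lowest WT value of 6.37. Meis1 had the smallest p, with a difference of -0.68 ± 0.33 from means of 11.90 ± 0.51 (n = 2) and 12.58 ± 0.48 (n = 5), an unadjusted p of 0.0727 and an adjusted p of 1.00 by limma. Pbx3 differed by 1.25 ± 0.82 and Hoxa9 by -0.45 ± 0.32, with intervals of -0.62 to 3.12 and -1.17 to 0.27.

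In p-Foxo3a samples, 11 member probes were higher and 5 lower than in WT samples (52.7% of all probes were lower), with a median of 0.07 (all probes: -0.013). By gene, 6 were higher and 3 lower, with a median of 0.06, where 6357 of all 11974 genes were lower. Again 0 of 16 passed an adjusted p of 0.05 (0% of all probes), 0 an unadjusted p of 0.05 (9.39%), and no member probe had groups that did not overlap (12.3%). With replicate 1 as the only p-Foxo3a sample, 336 of all probes passed the adjusted threshold, none of them the brightest probe of a member gene. The smallest p belonged to the Hoxa9 probe ILMN_1258462, with a difference of -0.54 ± 0.31 (unadjusted p = 0.117, adjusted p = 0.632, limma). The 2 samples differed from each other more than from WT for several genes. Pbx3 read 6.67 in replicate 1 and 9.90 in replicate 4, which were the lowest and the highest values of all samples, and the mean difference from WT was 0.14 ± 0.82. Hoxa5 likewise read 10.62 and 12.47, the lowest and the highest of all samples.

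**Figure D3:**
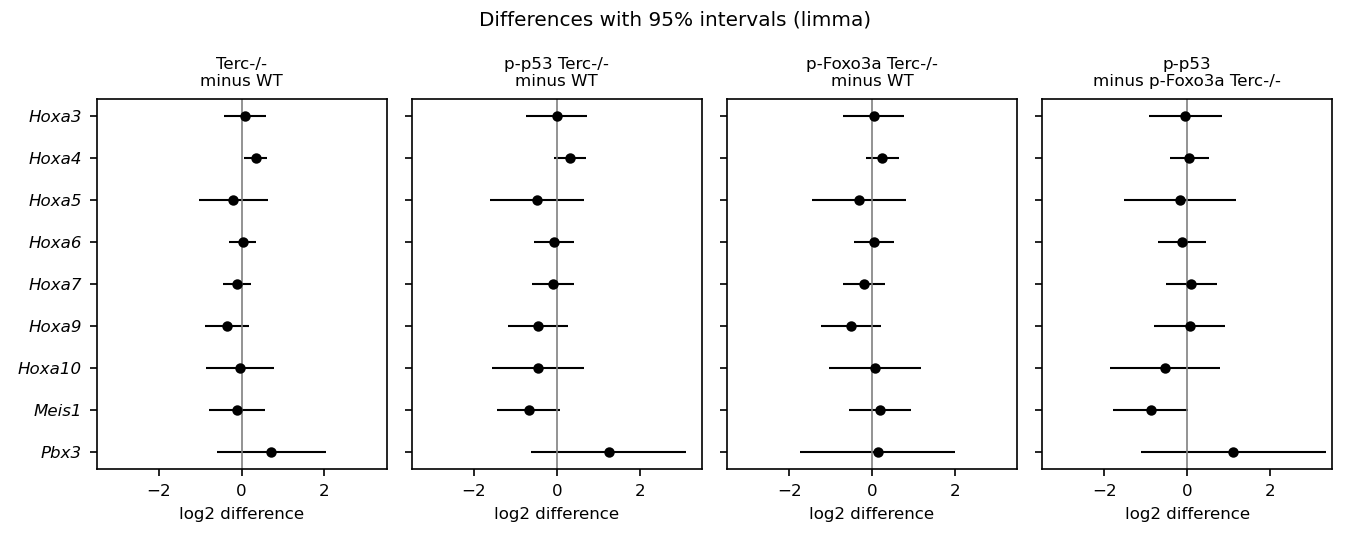
Log2 differences of the brightest probe of each gene with 95% intervals from limma, for Terc-/- minus WT (5 against 5 samples), p-p53 minus WT and p-Foxo3a minus WT (2 against 5 each) and p-p53 minus p-Foxo3a (2 against 2). Points are estimates and bars are intervals. All intervals include 0 except that of Hoxa4 for Terc-/- minus WT (0.06 to 0.62), which did not pass after adjustment over all probes.

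Set directly against each other, p-p53 and p-Foxo3a samples did not overlap for 5 of the 16 member probes, all lower in p-p53. Among all probes 29.7% did not overlap and 13.6% were lower in this way. Of all 16 member probes, 10 had a lower mean in p-p53, as did 47.7% of all probes. By gene, with the brightest probe of each, 5 were lower and 4 higher, with a median of -0.04. Of all 11974 genes, 5772 were lower. The 5 probes without overlap were the 3 Meis1 probes and the dim Hoxa3 probes ILMN_1234863 and ILMN_1237475. For Meis1 the brightest probe read 11.53 and 12.26 in the p-p53 samples against 12.54 and 13.01 in the p-Foxo3a samples, a difference of -0.88 ± 0.40. ILMN_1248401 differed by -1.39 ± 0.84 and ILMN_1218217 by -0.81 ± 0.53. The Meis1 difference had an interval of -1.78 to 0.03, an unadjusted p of 0.0562 and an adjusted p of 0.988 by limma. In this comparison 0 of 16 member probes passed an adjusted p of 0.05 (0% of all probes) and 0 an unadjusted p of 0.05 (4.86%). Of these 4 values of the brightest probe, 3 lay within the WT range of 12.02 to 13.20. Marker lists also differed among these samples. The mean deviation of 11 measured mature neutrophil genes was -1.20 and 0.98 in the p-p53 samples and -0.11 and -1.34 in the p-Foxo3a samples. That of 8 cycling genes was -0.12 and 0.11 in p-p53 and -0.75 and -0.15 in p-Foxo3a samples. The sort and lineage list joins genes that the sort selects for with lineage genes. Its 5 measured genes (Kit, Fcgr2b, Fcgr4, Ptprc and Itgam) had higher means in p-p53 than in p-Foxo3a samples, with a median of 0.44 (all genes: 0.0087). Of these, Fcgr2b, Itgam and the Fc receptor gene Fcgr4 had an unadjusted p under 0.05 and an adjusted p of 0.988 by limma. Their differences were 0.51 ± 0.17, 0.44 ± 0.17 and 1.22 ± 0.49. For Kit and Ptprc the samples overlapped. Kit read 13.09 and 13.03 in p-p53 against 13.24 and 12.77 in p-Foxo3a samples. Ptprc read 7.78 and 7.36 against 7.33 and 7.78. The part of these lists in the Meis1 difference was not tested.

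The same marker lists were compared between genotypes. Mature neutrophil genes were lower in Terc-/- than in WT samples in 10 of 11 cases, with a median of -0.65, and their mean deviation ranged from -0.15 to 0.91 in WT and from -1.34 to 0.98 in Terc-/- samples. Cathelicidin (Camp), a neutrophil granule gene, was at 15.08 ± 0.67 in WT and 13.26 ± 1.51 in Terc-/- samples. Cycling genes were lower in 8 of 8 cases, with a median of -0.41, and their mean deviation ranged from 0.0045 to 0.40 in WT and from -0.75 to 0.11 in Terc-/- samples. None of these genes passed an adjusted p of 0.05 by limma. Unadjusted, 2 neutrophil and 4 cycling genes had a p under 0.05. Over all 11974 genes, 6471 were lower in Terc-/- samples, with a median of -0.013, and 566 lower and 348 higher genes had an unadjusted p under 0.05. The part of either list in the values of the members was not tested.

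How far the members varied together was examined over the 10 samples with the brightest probe of each gene. Of 36 gene pairs, 32 had a Pearson r above 0, and r ranged from -0.28 to 0.90. Hoxa6 with Hoxa10 was the 1 pair past a Benjamini-Hochberg adjusted p of 0.05 over the 36 pairs, with r = 0.898 (permutation p = 0.00029, adjusted p = 0.0104) and Spearman rho = 0.939 (permutation p = 0.00021, adjusted p = 0.00756). Without the 2 samples farthest from the Hoxa6 median (WT samples 1 and 4), r was 0.967. With values taken as deviations from the group means, an alternative chosen after seeing the data, r was 0.901. Hoxa6 was near the background limit, so its share of this relation rests on small differences between dim values.

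By rank, a further 2 pairs passed. Hoxa9 with Hoxa10 had rho = 0.891 (adjusted permutation p = 0.0203) and r = 0.809 (adjusted permutation p = 0.0722), and r was 0.920 without WT sample 4 and Terc-/- sample 1. Hoxa6 with Hoxa9 had rho = 0.842 (adjusted permutation p = 0.0432) and r = 0.735 (adjusted permutation p = 0.110), and r was 0.626 without WT samples 1 and 4, so this relation rests in part on those samples. Hoxa3 had r = 0.791 with Hoxa6 and 0.800 with Hoxa10, and neither passed (adjusted permutation p = 0.0722 and 0.0886, and 0.287 for both by rank). Hoxa7 had low values with Hoxa10 (r = 0.12) and Hoxa3 (r = 0.06). Meis1 correlated with Hoxa5 at 0.67, Hoxa10 at 0.61 and Hoxa9 at 0.43, and none of these passed (adjusted permutation p = 0.189, 0.222 and 0.410). Pbx3 had r = -0.08 with Hoxa9, -0.04 with Meis1 and -0.28 with Hoxa6 (adjusted permutation p = 0.882, 0.920 and 0.598). These values depended on single samples. Without the 2 samples farthest from the median of the partner gene, r was -0.52, 0.56 and 0.005, and none of these passed (adjusted permutation p = 0.434, 0.434 and 0.992).

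**Figure D4:**
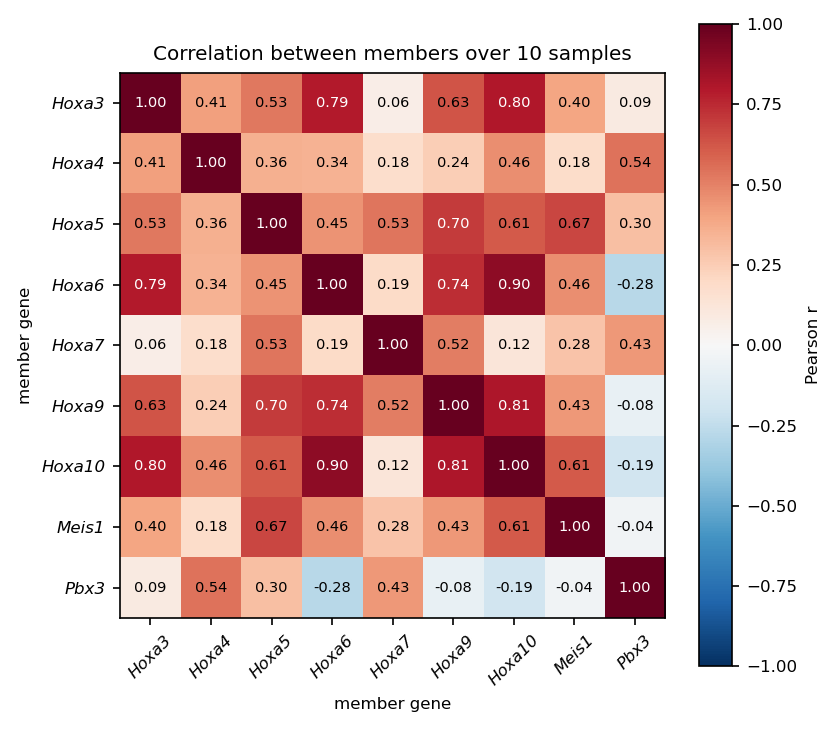
Pearson r between the 9 genes over the 10 samples, each gene on both axes, from blue (negative) through white (0) to red (positive). Each gene is read by its brightest probe. Hoxa3, Hoxa6, Hoxa9 and Hoxa10 are red with each other throughout (r from 0.63 to 0.90), and 4 of the 8 entries of Pbx3 are below 0. The dim Hoxa3 probes, which followed its brightest probe weakly (r = 0.31 and 0.11), are not shown.

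For Hoxa6, Hoxa9 and Hoxa10, the 3 genes whose pairs passed by rank, the 250 bases before 1 annotated start of each are shown, from RefSeq on GRCm38.p6, all on the minus strand of chromosome 6. Such windows were found for 7 of the 9 genes. Each is written 5′ to 3′ toward the gene, and capitals mark matches, on either strand, to CCAAT or TATAAA. Hoxa6 lies at chr6:52208673-52208922, Hoxa9 at chr6:52227371-52227620 and the Hoxa10 start nearer to Hoxa9 at chr6:52234940-52235189.
Hoxa6: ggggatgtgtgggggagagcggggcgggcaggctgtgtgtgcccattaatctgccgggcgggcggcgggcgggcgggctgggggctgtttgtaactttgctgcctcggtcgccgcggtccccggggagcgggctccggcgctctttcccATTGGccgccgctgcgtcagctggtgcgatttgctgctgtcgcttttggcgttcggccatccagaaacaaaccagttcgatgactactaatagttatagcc
Hoxa9: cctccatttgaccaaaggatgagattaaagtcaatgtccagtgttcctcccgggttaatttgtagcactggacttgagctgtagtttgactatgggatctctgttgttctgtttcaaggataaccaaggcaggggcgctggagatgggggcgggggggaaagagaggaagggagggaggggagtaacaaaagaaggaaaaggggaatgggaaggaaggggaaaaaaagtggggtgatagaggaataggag
Hoxa10: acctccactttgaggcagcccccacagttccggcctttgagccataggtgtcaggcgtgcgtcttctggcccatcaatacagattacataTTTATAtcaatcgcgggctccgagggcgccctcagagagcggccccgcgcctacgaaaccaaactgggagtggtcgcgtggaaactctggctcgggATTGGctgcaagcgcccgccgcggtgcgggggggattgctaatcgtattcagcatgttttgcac

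The Hoxa6 and Hoxa10 windows are rich in CpG, with 24 and 20 CpG pairs, where the median of 32851 annotated windows of this length is 6, and the Hoxa9 window has 3. Hoxa6 and Hoxa10 each hold 1 CCAAT match (33.8% of all windows have 1 or more), and Hoxa10 holds 1 TATAAA match (12.4%). TGATTNAT, a form of the composite site that PBX and HOX proteins bind together, is in 2.82% of all windows and in none of the 8 windows of the members. TGACAG, a MEIS core, is in 15.9% of all windows and among the members in the Hoxa3 window. The motifs do not overlap one another in the sequences shown. These are matches of letters in short windows and say nothing about binding in these cells.

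The 5 genes whose brightest probe followed Hoxa9 most closely over the 10 samples were E2f8 (r = 0.937), Marchf11 (0.925), Net1 (0.910), 4933434E20Rik (0.901) and Top1 (0.892). E2f8 encodes a cell cycle repressor of the E2F family and Top1 encodes DNA topoisomerase I. For Meis1 they were Ctps2 (0.890), Smim14 (0.880), Lmo2 (0.870), Gm6548 (0.869) and Srpx2 (0.861). Lmo2 encodes a transcription cofactor of blood progenitors and is itself among the listed targets. For Pbx3 they were Adgrl4 (0.930), Mfhas1 (0.907), Cwc25 (0.906), Fam126a (0.899) and Arhgap22 (0.892). Adgrl4, an adhesion G protein-coupled receptor, ranged over 5.46 on the log2 scale. These are the highest r over all measured genes and are given as a description, since arrays and cell makeup are shared by all genes of a sample.

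In Terc-/- replicate 1, a p-Foxo3a sample, several members departed from the genes around them. Over all probes this array also stood apart. Its correlations with the other arrays were 0.967 to 0.980, with 824 to 1600 tested probes at least 2-fold apart. The part of this wider departure in the member values was not tested. Deviations here are log2 values minus the median of the other samples. The 50 measured neighbours of Hoxa9 on chromosome 6, other members left out, had a median of 0.40, and 41 of them were higher. The 354 measured genes of the chromosome had a median of 0.40 as well, against -0.06 on other chromosomes. In the same sample all 7 HOXA members lay below the median of the other samples, with deviations of -0.79 for Hoxa9, -1.27 for Hoxa5, -0.62 for Hoxa7, -0.45 for Hoxa3, -0.30 for Hoxa4, -0.24 for Hoxa10 and -0.11 for Hoxa6. In the other samples the neighbours of Hoxa9 had medians between -0.10 and 0.03. Pbx3 deviated by -2.27 in replicate 1, whereas its 50 neighbours on chromosome 2 had a median of -0.07. A run of 102 genes with a median of -0.88 lies on the same chromosome, 59 measured genes away from Pbx3. Meis1 deviated by 0.16 in replicate 1, with a median of -0.18 for its 50 neighbours on chromosome 11.

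**Figure D5:**
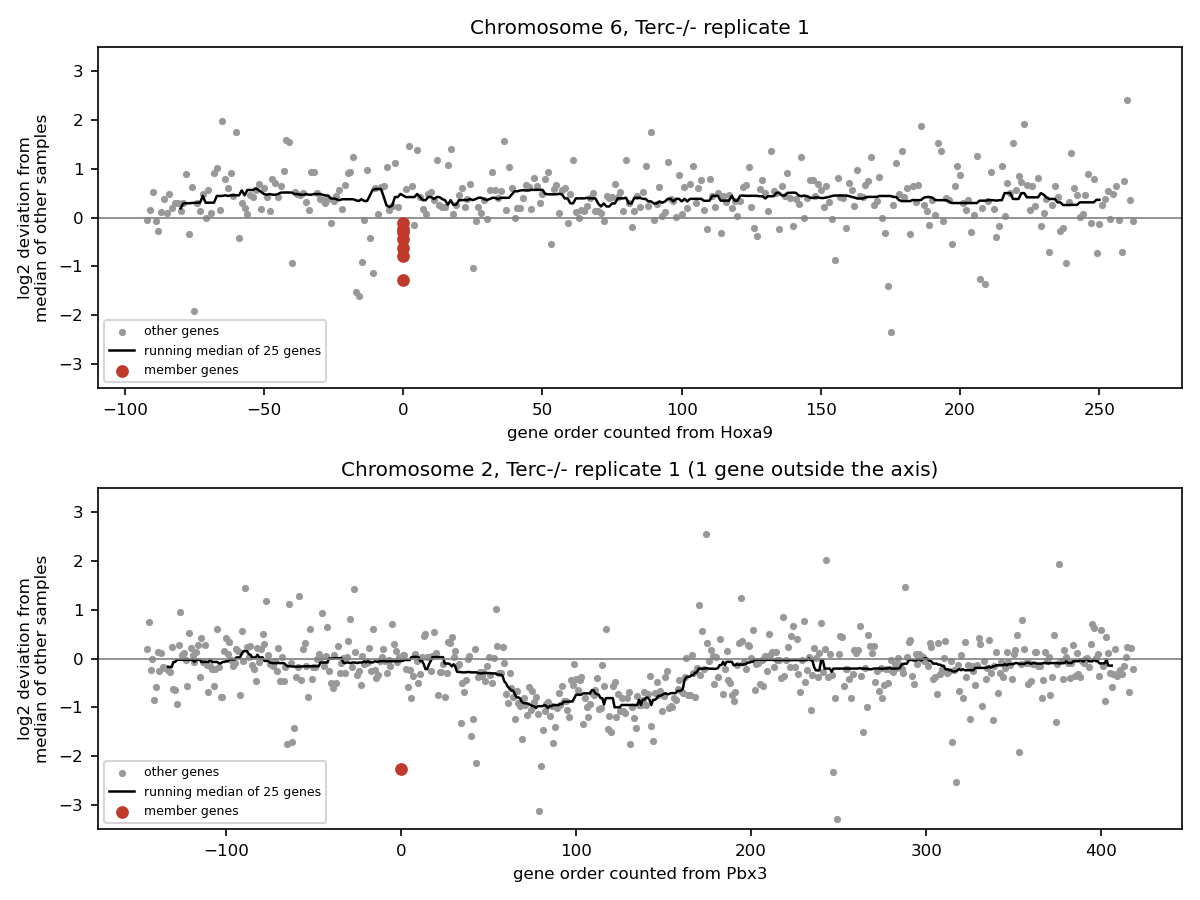
Log2 deviation of genes in Terc-/- replicate 1 from the median of the other samples, in gene order along chromosome 6 counted from Hoxa9 (top) and along chromosome 2 counted from Pbx3 (bottom). Grey points are other genes, the black line is their running median over 25 genes, and red points are members, with all HOXA genes drawn at position 0. The running median stays above 0 along chromosome 6 while the HOXA genes lie below it, and the low run on chromosome 2 does not reach Pbx3.

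The remaining HOX genes were mostly dim. Of 32 listed, 13 were measured above background, with 4 higher and 9 lower in Terc-/- samples, a median difference of -0.02 and 0 past an adjusted p of 0.05 by limma (all genes: 5503 higher, 6471 lower, median -0.01). Hoxa2, the most 3′ gene of the A cluster measured, read 7.87, 7.09, 7.30, 7.59 and 7.25 in WT samples and 7.17, 8.84, 7.88, 8.11 and 8.87 in Terc-/- samples 1, 2-6, 3, 4 and 5. As for Hoxa4, 4 of 5 Terc-/- samples lay above every WT sample and replicate 1 did not, with a difference of 0.76 ± 0.31 (unadjusted p = 0.0312, adjusted p = 0.644, limma). Hoxb4, a HOX gene of blood stem cells, lay below the WT range in 4 of 5 Terc-/- samples and differed by -0.74 ± 0.32 (adjusted p = 0.663, limma). Its values were 8.32, 7.22, 8.63, 6.76 and 8.20 in Terc-/- samples 1, 2-6, 3, 4 and 5, where WT samples lay between 8.34 and 8.89.

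Other TALE genes split evenly, with 5 of 10 measured genes higher and 5 lower and a median of -0.02. The smallest p belonged to Pbx4 (0.42 ± 0.14, adjusted p = 0.611, limma) and Tgif1, a TALE repressor (0.64 ± 0.33, adjusted p = 0.682, limma). Among 12 measured further targets of MLL fusions, 8 were higher and 4 lower, with a median of 0.13. Mbnl1, an RNA splicing regulator, had 14.43 ± 0.25 in WT and 15.03 ± 0.31 in Terc-/- samples, a difference of 0.60 ± 0.16, and Mecom, a transcription factor of blood stem cells, differed by 0.69 ± 0.28. Their adjusted p values were 0.598 and 0.644 by limma. Of 16 measured genes listed as targets of Hoxa9 and Meis1, 9 were higher and 7 lower, with a median of 0.05. The smallest p values were those of Syk, a signalling kinase (-0.33 ± 0.09), and Hif1a, the hypoxia factor (0.49 ± 0.20), with adjusted p of 0.611 and 0.644 by limma. Between p-p53 and p-Foxo3a samples, 9 of these 16 targets were lower in p-p53, with a median of -0.30 (all genes: 0.0087), and Cd34, a progenitor surface antigen, differed by -1.44 ± 0.46 (adjusted p = 0.988, limma). None of the genes in these lists passed an adjusted p of 0.05 in any of the 4 comparisons.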

How the data were processed

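Total RNA of 12 sorted leukaemia samples was measured on Illumina bead arrays. The deposited values of 38502 probes are on a log2 scale, and GenomeStudio is the 1 tool that appears in the submitters' processing notes. Its version and the steps of normalization and background treatment are not stated in any source used. The log base was read from the range of values, and array medians of 6.57 to 6.58 are those of a normalized table. The raw table's 24 columns name no sample and were not used.

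A background limit of 6.57 (mode 6.35 plus a tail p of 0.05 at an SD of 0.13) kept 22084 probes that passed it on at least 3 of 12 arrays. The brightest kept probe stood for each of 11974 genes. Near-identical arrays were averaged. Groups were compared in limma 3.58.1 under R 4.3.3 (lmFit, then eBayes), two-sided, with Benjamini-Hochberg adjustment over all kept probes. Status comparisons used 1 fit of 3 levels over 9 samples, without replicate 5. The fits were tested on simulated data. Correlations used 100000 permutations; within a genotype 5 samples were too few. Alternatives covered the samples, filter, normalization, background, variance, weights and each left-out sample. The platform annotation gave 1 gene to 32034 probes.

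The members and lists (marker lists of 9 cell types or states, other HOX, TALE, MLL fusion target, Hoxa9 and Meis1 target, flanking and sort genes) were chosen with earlier results of these data known. Named genes are all members, up to 2 genes of smallest p per list and comparison, the 5 genes most like Hoxa9, Meis1 and Pbx3, and the sort genes. The number of arrays limits the precision.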

Additional observations from a re-analysis of the deposited data

Results flagged for a closer look

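Of 32 combinations of a tested member probe and a genotype, each with 5 samples, 1 held a sample far from the others. The Meis1 probe ILMN_1218217 read 8.77 in WT replicate 4, which lay 1.36 above the next WT sample, a gap that was 0.757 of the whole WT range. WT replicate 4 was also the highest WT sample for the other 2 Meis1 probes, at 13.20 and 11.81. Chance flags about 1 in 20 such groups.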

How the results depend on the processing

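The 43 differences examined (16 member probes between genotypes, and the brightest probe of each gene in the 3 status comparisons) gave 819 values under the alternatives, of which 75 had the opposite sign and 0 passed an adjusted p of 0.05 (smallest 0.230). The 819 include settings that changed only the filter or the variance model, which cannot turn a sign. For 15 differences no alternative turned the sign. These include Hoxa9 and Pbx3 between genotypes, where leaving out 1 sample gave -0.483 to -0.218 and 0.453 to 1.26. The design has 2 samples per status, so leaving out 1 leaves a lone sample that is assumed to vary like the other groups. Dim probes have no value under the stricter filter, and probes other than a gene's brightest have none in the fit of 1 probe per gene. The cause of the changes below was not tested.

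With all 12 arrays as separate samples, the genotype difference was -0.0645 for Hoxa3 (ILMN_1255920), -0.00812 for Hoxa6, -0.000801 for Hoxa3 probe ILMN_1237475 and -0.0783 for Meis1 probe ILMN_1218217, and Hoxa3 between p-Foxo3a and WT was -0.0363. The replicate block over 12 arrays gave the same 4 genotype differences. Replicate numbers did not pair the samples (r of same-numbered samples -0.232 to 0.118, and 0 of 6 numbers correlated best with their own), and the block left 0 probes past the threshold. Between p-p53 and WT, Hoxa3 was 0.00461 after a further quantile normalization, 0.00138 after centring and 0.0939 after background subtraction, and Pbx3 between p-Foxo3a and WT was -0.497 after background subtraction. With array weights the genotype difference was 0.0738 for Hoxa5, 0.131 for Hoxa10 and 0.0699 for Meis1, and Hoxa3 between p-Foxo3a and WT was -0.0471.

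Leaving out 1 sample at a time turned the sign of several differences. Between genotypes, Hoxa10 ranged from -0.216 to 0.189, Hoxa3 probe ILMN_1237475 ranged from -0.0400 to 0.0596 and Hoxa3 ranged from -0.058 to 0.194. Likewise, Hoxa5 ranged from -0.403 to 0.0594, Hoxa6 ranged from -0.0703 to 0.133 and Hoxa7 ranged from -0.185 to 0.0107. There, Meis1 probe ILMN_1218217 ranged from -0.0903 to 0.36 and Meis1 ranged from -0.242 to 0.131. Between p-p53 and WT, Hoxa10 ranged from -0.922 to 0.0095, Hoxa3 ranged from -0.356 to 0.349 and Hoxa5 ranged from -1.22 to 0.277. Under this test, Hoxa6 ranged from -0.221 to 0.102 and Hoxa7 ranged from -0.228 to 0.0316. Between p-Foxo3a and WT, Hoxa10 ranged from -0.233 to 0.393, Hoxa3 ranged from -0.158 to 0.234 and Hoxa4 ranged from -0.0192 to 0.529. Also, Hoxa5 ranged from -1.23 to 0.62, Hoxa6 ranged from -0.038 to 0.166 and Hoxa7 ranged from -0.592 to 0.192. Here, Meis1 ranged from -0.0407 to 0.434 and Pbx3 ranged from -1.48 to 1.76. Between p-p53 and p-Foxo3a, Hoxa3 ranged from -0.394 to 0.311, Hoxa4 ranged from -0.218 to 0.33 and Hoxa5 ranged from -1.09 to 0.758. Further, Hoxa6 ranged from -0.281 to 0.042, Hoxa7 ranged from -0.29 to 0.493 and Hoxa9 ranged from -0.344 to 0.464. Among the rest, Pbx3 ranged from -0.507 to 2.73.

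The number of probes past an adjusted p of 0.05, 0 in each comparison, was 1 between genotypes with 12 arrays and 1 with array weights, and between p-p53 and WT 2 with 12 arrays and 1 after background subtraction. Leaving out 1 sample gave 0 to 3 between genotypes, 0 to 14 for p-p53 and 0 to 336 for p-Foxo3a against WT, and 0 to 43 between the statuses, the highest without WT replicate 2, Terc-/- replicate 3, Terc-/- replicate 4 and Terc-/- replicate 4. The correlation of Hoxa6 with Hoxa10, 0.898 in the main setting, was 0.967 without the 2 samples farthest from the Hoxa6 median. It was 0.901 on deviations from group means. The mean of all kept probes repeats the main value, since neither gene kept a further probe. Values near the background limit, as for Hoxa6 and the dim Hoxa3 and Hoxa9 probes, carry little signal, and no background subtraction was visible in the deposited values, so folds are compressed most for dim probes.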

Other observations

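Genes that flank the HOXA cluster were compared between genotypes as well, and 6 of 9 measured were higher and 3 lower in Terc-/- samples, with a median of 0.11 and none past an adjusted p of 0.05 by limma. Jazf1 differed by -0.27 ± 0.15 and Creb5 by -0.12 ± 0.09, both from dim values. Between p-Foxo3a and WT samples Tax1bp1 had the smallest p, at 14.23 ± 0.90 (n = 2) against 13.47 ± 0.27 (n = 5), a difference of 0.76 ± 0.31 (adjusted p = 0.520, limma). Tax1bp1 read 14.87 in replicate 1 and 13.60 in replicate 4, and the latter lies within the WT range of 13.25 to 13.95. Replicate 1 is the sample whose measured chromosome 6 genes had a median deviation of 0.40, and Tax1bp1 deviated by 1.47 there. The part of that shift in the Tax1bp1 value was not tested.

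Marker lists of other cell types showed no gene past an adjusted p of 0.05 by limma between Terc-/- and WT samples. Monocyte and macrophage genes were higher in 6 and lower in 6 of 12 cases (median 0.05), and granulocyte-macrophage progenitor genes were higher in 5 and lower in 4 of 9 cases (median 0.03). Of 4 measured stem cell genes, 2 were higher (Mecom and Gata2) and 2 lower (median 0.34). Among the lower genes Procr, an endothelial protein C receptor, differed by -0.19 ± 0.07. Its values were dim, from 6.60 to 6.86 in WT and from 6.43 to 6.64 in Terc-/- samples. Erythroid genes had a median of 0.01 (5 measured), megakaryocyte genes 0.03 (3 measured), B cell genes 0.01 (4 measured) and T cell genes -0.12 (2 measured). Gata2, a transcription factor of blood stem cells, was at 11.95 ± 0.61 in the 2 p-Foxo3a samples and 9.89 ± 1.59 in WT samples, a difference of 2.06 ± 0.92 (adjusted p = 0.539, limma). The groups overlapped, with 11.52 in p-Foxo3a replicate 1 and 12.22 in WT replicate 1. Gata2 lies on chromosome 6 and deviated by 1.75 in Terc-/- replicate 1, where the chromosome had a median of 0.40. The part of that shift in the Gata2 value was not tested. Bcl2, which encodes an inhibitor of apoptosis, was at 9.68 ± 0.60 in p-Foxo3a and 8.16 ± 0.85 in WT samples, a difference of 1.52 ± 0.55 (adjusted p = 0.483, limma). Of the 5 measured sort and lineage genes (Kit, Fcgr2b, Fcgr4, Ptprc and Itgam), 2 were higher and 3 lower in Terc-/- than in WT samples (median -0.03). In p-p53 samples 5 of 5 were higher than in WT samples (median 0.23, 2 with an unadjusted p under 0.05) and 5 of 5 higher than in p-Foxo3a samples (median 0.44, 3 under 0.05). None passed an adjusted p of 0.05 by limma.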
